A study of Arabidopsis thaliana with 8 samples.

Results

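In developing Arabidopsis seeds, 245 of 37745 genes with an AT locus name (38209 genes in all) differed from Col-0 in opposite directions in the single mutants *pkr2-2* and *pkl-1*. The genes were chosen by their measured values: L, the log2 of the ratio of FPKM + 1 in the mutant to FPKM + 1 in Col-0, had to be at least 0.5 in one mutant and at most -0.5 in the other, a 1.41-fold difference on that scale. The first set, higher in *pkr2-2* and lower in *pkl-1*, held 153 genes, and the second set, lower in *pkr2-2* and higher in *pkl-1*, held 92 genes. FPKM count sequenced fragments relative to transcript length and to library size.

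mRNA was sequenced from seeds of both single mutants, of *pkr2-2;pkl-10* (double mutant) and of Col-0, the wild type, with 2 biological replicates each and at least 30 siliques in a replicate. Plants were grown without further treatment in long days. GEO's sample names give an age of 4 days after pollination (DAP) and the extraction protocol gives 3. The double mutant carries another *PKL* allele than the single mutant, *pkl-10* and not *pkl-1*, so that loss of both genes and the change of allele cannot be told apart. The authors deposited 1 value per genotype and table, pooled over the replicates, so no value below has a replicate error and no difference was tested. The same Col-0 libraries enter all 3 comparisons with Col-0, and those of *pkr2-2* and *pkl-1* recur in the comparisons with the double mutant.

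*PKL* and *PKR2* encode chromatin remodelers of the CHD3 family, enzymes that use ATP to move nucleosomes. PKL is known for holding embryo genes silent in seedlings and is linked to the repressive histone methylation laid down by Polycomb group proteins, while PKR2 is expressed mainly in seeds. *PKR2* (AT4G31900) was at 0.168 FPKM in *pkr2-2* against 3.06 FPKM in Col-0, and at 0.120 FPKM in double mutant seeds against 3.57 FPKM in Col-0. In *pkl-1* its level was 2.19 FPKM against 3.36 FPKM in Col-0. *PKL* (AT2G25170) was at 2.44 FPKM in double mutant seeds against 13.6 FPKM in Col-0. Its transcript was not lower in *pkl-1*, at 15.2 FPKM against 12.8 FPKM in Col-0, so its level does not check the *pkl-1* label. Relative to Col-0 in the same table, the depth read from the smallest values was 0.95 for *pkr2-2*, 1.16 for *pkl-1* and 1.36 for the double mutant. Col-0 FPKM of a gene differed between tables by a nearly constant factor, 1.10 and 1.17 times the *pkr2-2* table in the other tables with Col-0, so levels are compared within a table.

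The largest group with a shared annotation in the first set was that of small secreted cysteine-rich peptides. Peptides of this kind (LCR, low-molecular-weight cysteine-rich; DEFL, defensin-like) carry a signal peptide and a mature part folded by disulfide bridges between cysteines, and many act in defence, in pollination or in the communication between seed tissues. The coding sequences of a run of 3 such genes that all belong to the first set, *LCR22*, *LCR21* and *LCR24*, on chromosome 4 of TAIR10.1 (chr4:14427882-14432290), and of the DEFL gene that stood first in that set by the smaller of its differences in the single mutants, AT2G03931 (chr2:1214428-1214843), are shown because they let the cysteine pattern be read. They are given 5′ to 3′ from the TAIR10.1 genome as annotated by RefSeq, and capitals mark the codons for cysteine.
LCR22 (AT4G29280, minus strand): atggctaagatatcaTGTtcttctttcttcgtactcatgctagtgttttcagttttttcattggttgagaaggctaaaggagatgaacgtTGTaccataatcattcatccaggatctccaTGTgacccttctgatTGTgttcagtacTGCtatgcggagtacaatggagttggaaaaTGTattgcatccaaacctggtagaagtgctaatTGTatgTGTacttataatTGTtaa
LCR21 (AT4G29283, minus strand): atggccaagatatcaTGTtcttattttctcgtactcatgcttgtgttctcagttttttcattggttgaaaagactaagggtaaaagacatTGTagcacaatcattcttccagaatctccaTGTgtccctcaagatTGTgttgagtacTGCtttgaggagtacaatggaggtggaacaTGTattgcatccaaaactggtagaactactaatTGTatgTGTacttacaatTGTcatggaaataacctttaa
LCR24 (AT4G29285, plus strand): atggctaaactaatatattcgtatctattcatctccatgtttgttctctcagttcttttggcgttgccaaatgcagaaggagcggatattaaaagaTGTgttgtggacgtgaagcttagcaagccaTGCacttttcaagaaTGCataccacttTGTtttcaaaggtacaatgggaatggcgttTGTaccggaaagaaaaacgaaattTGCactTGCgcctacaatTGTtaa
AT2G03931 (plus strand): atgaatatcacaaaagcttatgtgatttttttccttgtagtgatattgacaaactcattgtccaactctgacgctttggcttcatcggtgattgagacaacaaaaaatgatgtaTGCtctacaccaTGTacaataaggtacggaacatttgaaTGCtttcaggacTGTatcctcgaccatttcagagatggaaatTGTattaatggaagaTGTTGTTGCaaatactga
*LCR22* had 9 cysteine codons among 77, *LCR21* 9 among 82, *LCR24* 8 among 76 and AT2G03931 8 among 75. The coding sequences of *LCR22* and *LCR21* were identical at 81.6% of aligned positions, and that of *LCR24* matched them at 58.5% and 57.8%. How the authors' counting divided reads between such copies is not known here, so the level of a single copy is uncertain.

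*LCR22* was at 302 FPKM in *pkr2-2* against 104 FPKM in Col-0 (L of 1.53), and at 20.8 FPKM in *pkl-1* against 114 FPKM in Col-0 (L of -2.39). In double mutant seeds its level was 123 FPKM, against 121 FPKM in Col-0, an L of 0.03. *LCR22* thus stood at the Col-0 level there. The neighbouring copies kept their distance from Col-0 in double mutant seeds. *LCR21* was at 534 FPKM in *pkr2-2* against 302 in Col-0, at 89.9 FPKM in *pkl-1* against 331 in Col-0, and at 121 FPKM in double mutant seeds against 352 in Col-0. *LCR24* was at 399 FPKM in *pkr2-2* against 232 in Col-0, at 103 FPKM in *pkl-1* against 254 in Col-0, and at 151 FPKM in double mutant seeds against 270.3 in Col-0. For both, the double mutant lay near *pkl-1*, with L over *pkl-1* of 0.36 and 0.48, while *LCR22* was 2.44 above it. AT2G03931 was at 48.9 FPKM in *pkr2-2* against 6.49 in Col-0, was listed at 0 in *pkl-1* against 7.12 in Col-0, and was at 10.7 FPKM in double mutant seeds against 7.59 in Col-0. Its transcript has 228 nucleotides (nt), too short for an estimate of the fragments behind these values. The transcripts of *LCR22* (253 nt) and *LCR21* (341 nt) are also too short for it, so their levels are uncertain too. In bulk samples such as these, fewer cells of a type and less RNA per cell cannot be told apart.

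Product names and annotation notes were searched for LCR, DEFL, defensin, SCR-like, cysteine-rich protein, thionin and ECA1 gametogenesis related, terms put together after the values were seen. By this search 35 of the 153 genes of the first set encoded such peptides, or 22.9%. The share was 3 of 92 in the second set (3.26%) and 1.07% of the 19562 genes that could reach the fold in both tables. Outside both sets the search also caught some genes, such as *MT2B*, *PHS1* and *PROPEP1*, that need not encode such peptides. Of the 35, 25 were LCR, DEFL or SCR-like, 6 ECA1 gametogenesis related and 4 thionins. Sequence alone was also counted. Of the genes of the first set with a coding sequence, 44 of 136 (32.4%) had at most 120 codons with cysteine at 5% or more of them, against 6 of 74 (8.11%) in the second set and 2.17% of 18853 coding genes that could reach the fold. The coding sequences had a median of 137 codons in the first set, 250 in the second and 369 over all. At most 120 codons, whatever their cysteine, were found in 45.6%, 23.0% and 7.52%. Shortness is thus part of the difference in that count. The share of 22.9% by annotation was not compared with genes of like length either. Transcripts under 400 nt were 28.8% of the first set and 1.86% of the genes that could reach the fold.

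The whole peptide family, the members included, was described over the same genes in each contrast, those with enough FPKM in Col-0 alone to show a lower level. A gene that enters only through a high level in a mutant has to be higher there. With such genes counted, 93 of 239 peptide genes were higher by 0.5 or more in *pkr2-2*. In *pkl-1* 31 of 222 were then higher and 143 lower, and in double mutant seeds 60 of 238 were higher and 122 lower. Choice by Col-0 level leans the other way. A short or low gene that enters through a high Col-0 value tends to be lower in the mutants. This lean applies to all counts by Col-0 level below. By Col-0 level 199 peptide genes entered, of which 57 (28.6%) were higher and 36 (18.1%) lower in *pkr2-2*, where 9.13% of all 19015 genes with such a Col-0 level were higher and 7.64% lower. The median L of the family there was 0.23. In *pkl-1*, 12 of the 199 were higher and 143 (71.9%) lower, where 15.8% of all were higher and 18.7% lower, and the median L of the family was -1.07. In double mutant seeds, 26 were higher and 122 (61.3%) lower, where 22.0% of all were higher and 23.3% lower, with a family median of -0.87. In *pkl-1* most of the family thus stood below Col-0, while in *pkr2-2* the genes above and below Col-0 were both in the minority. The 35 peptide genes of the first set are among the 57 and among the 143, because the rule chose them so. They make up most of the 57, so the share higher in *pkr2-2* largely repeats that choice. Among 25 genes annotated as ECA1 gametogenesis related, 11 were higher in *pkr2-2* and 4 lower, 1 was higher in *pkl-1* and 16 lower, and 4 were higher in double mutant seeds and 14 lower. Of 21 thionins, antimicrobial peptides rich in cysteine, 6 were higher in *pkr2-2* and 6 lower, 2 were higher in *pkl-1* and 13 lower, and 8 were higher in double mutant seeds and 9 lower. The family members share sequence, and several are tandem copies, so they are not independent of one another.

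**Figure D1:**
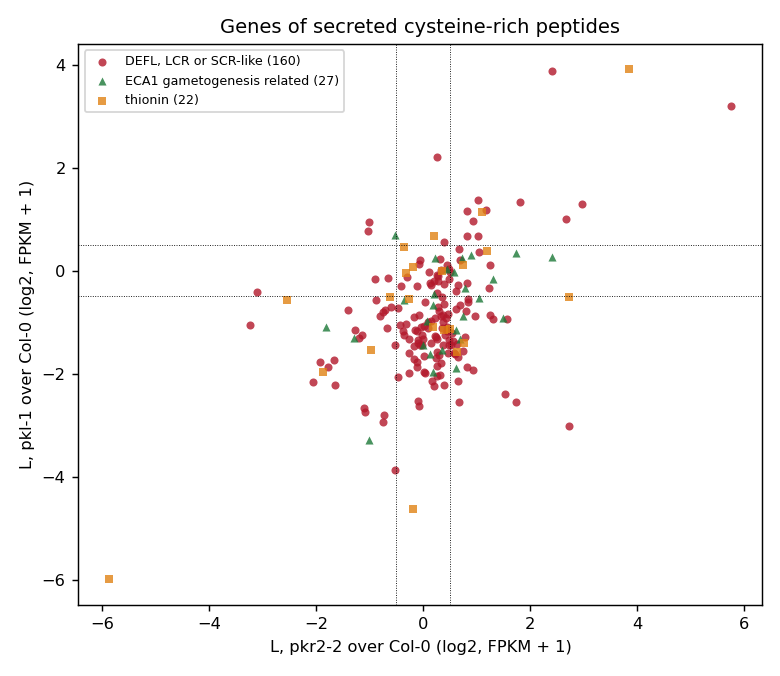
Each point is 1 gene found by the annotation search for secreted cysteine-rich peptides that could reach the fold in both tables, with L in *pkr2-2* over Col-0 on the x axis and L in *pkl-1* over Col-0 on the y axis (log2 of FPKM + 1), colour and shape giving the kind of peptide by that search and dotted lines the threshold of 0.5. Of the 209 genes, 35 lie in the lower right field, higher in *pkr2-2* and lower in *pkl-1*, and 3 in the upper left field.

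In double mutant seeds, 3 of the 35 peptide genes were higher than in Col-0 by 0.5 or more, 21 were lower and 11 lay in between, with a median L of -0.78. The whole first set had 5.23% higher and 56.9% lower there. Against *pkl-1*, 17 of the 35 were higher in double mutant seeds, 1 was lower and 17 lay in between. The whole first set had 39.9% higher and 7.84% lower in that comparison. Neither count is thus a result about peptide genes. *LCR38* (AT4G19905), with about 3295 fragments in Col-0, was at 622 FPKM in *pkr2-2* against 395 in Col-0, at 135 FPKM in *pkl-1* against 433 in Col-0, and at 173 FPKM in double mutant seeds against 460.0 in Col-0. *LCR45* (AT4G39917) was at 272 FPKM in *pkr2-2* against 91.4 in Col-0, at 51.7 FPKM in *pkl-1* against 100.2 in Col-0 and at 52.8 FPKM in double mutant seeds against 106 in Col-0. In both genes the double mutant stood at the level of *pkl-1*. The DEFL gene AT1G58055 was at 516 FPKM in *pkr2-2* against 336 in Col-0, at 219 FPKM in *pkl-1* against 369 in Col-0 and at 373 FPKM in double mutant seeds against 392 in Col-0, so that here it stood at the level of Col-0. The 3 peptide genes above Col-0 in double mutant seeds were AT1G69825, AT2G26865 (a thionin, L of 0.91) and AT1G56553 (DEFL, 0.64), and AT1G69825, another DEFL gene, lay farthest above it: 20.0 FPKM in *pkr2-2* against 7.87 in Col-0, 4.32 FPKM in *pkl-1* against 8.63 in Col-0, and 58.9 FPKM in double mutant seeds against 9.19 in Col-0, an L of 2.55. AT1G15757, a DEFL gene by its annotation note though its product name is that of a DnaJ chaperone, was at 17.2 FPKM in *pkr2-2* against 4.45 in Col-0 and was listed at 0 both in *pkl-1*, against 4.88 in Col-0, and in double mutant seeds, against 5.2 in Col-0. Apart from *LCR38*, the genes named in this paragraph have transcripts too short for a fragment estimate, so their levels are uncertain. *LCR45* has 249 nt, AT1G69825 222 nt and AT1G15757 255 nt.

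A second run of neighbours was formed by 4 ECA1-related genes on chromosome 3 (chr3:114260-117630), AT3G01322, AT3G01326, AT3G01327 and AT3G01328, whose coding sequences matched each other at 71.0% to 85.8% of aligned positions. AT3G01327, the one with the highest level, was at 428 FPKM in *pkr2-2* against 266 in Col-0, at 116 FPKM in *pkl-1* against 292 in Col-0 and at 132 FPKM in double mutant seeds against 310.2 in Col-0. AT3G01328 was at 51.0 FPKM in *pkr2-2* against 33.0 in Col-0, at 15.69 FPKM in *pkl-1* against 36.2 in Col-0 and at 34.7 FPKM in double mutant seeds against 38.5 in Col-0. Within this run, as within that of the LCR genes, some copies had the *pkl-1* level in double mutant seeds and others the Col-0 level. The transcripts of AT3G01327, *LCR22* and *LCR21* are too short for a fragment estimate, so this contrast between copies is uncertain.

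**Figure D2:**
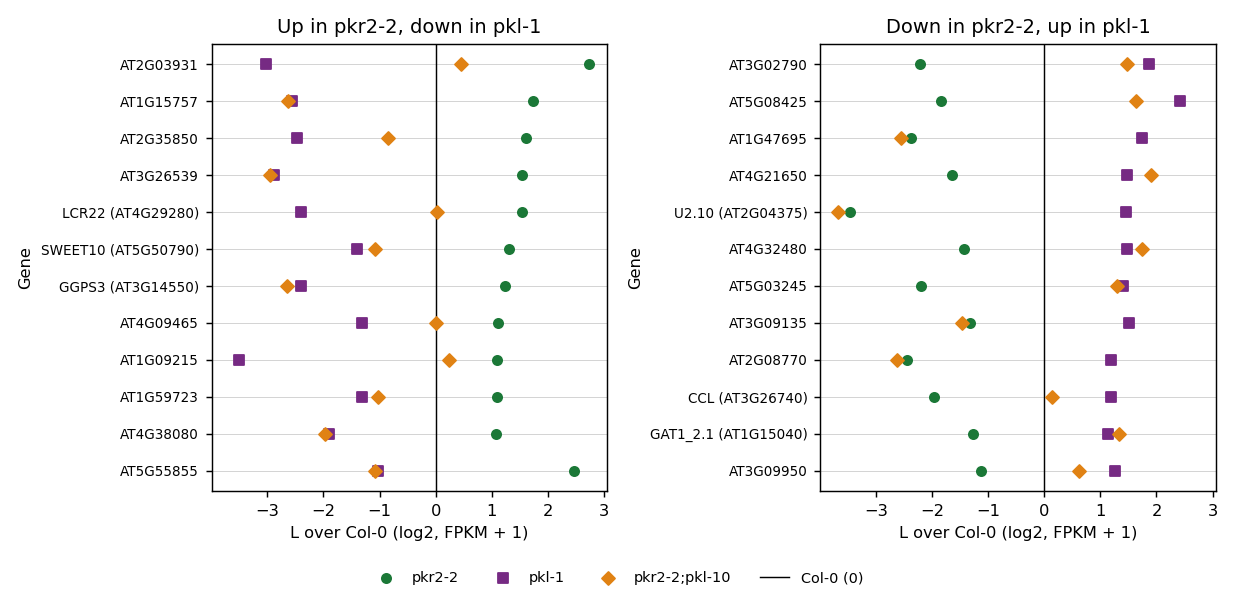
L over Col-0 (log2 of FPKM + 1) on the x axis in *pkr2-2* (circles), *pkl-1* (squares) and the double mutant (diamonds) for the 12 genes of each set with the largest smaller change of the 2 single mutants, 1 gene per row, with Col-0 as the line at 0. *SWEET10* had -1.07 in double mutant seeds, near the -1.40 of *pkl-1*, whereas *CCL* had 0.14, near Col-0.

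Of the 12 genes of the first set with the largest smaller difference, 4 had a transcript of 400 nt or more, for which fragments could be estimated, and these are described first. *SWEET10* (AT5G50790), a sucrose transporter of the SWEET family, was at 252 FPKM in *pkr2-2* against 101 in Col-0 and at 41.4 FPKM in *pkl-1* against 111 in Col-0. In double mutant seeds its level was 55.3 FPKM, against 118 in Col-0. The estimate was about 4411 fragments in Col-0. *GGPS3* (AT3G14550), a geranylgeranyl pyrophosphate synthase of isoprenoid metabolism, was at 22.3 FPKM in *pkr2-2* against 8.89 in Col-0, at 1.04 FPKM in *pkl-1* against 9.75 in Col-0 and at 0.817 FPKM in double mutant seeds against 10.4 in Col-0. Both genes had the *pkl-1* level in double mutant seeds. AT4G38080, a hydroxyproline-rich glycoprotein gene, had L of 1.07 in *pkr2-2*, -1.90 in *pkl-1* and -1.97 in double mutant seeds. AT4G09465, with a carbohydrate-binding X8 domain, had L of 1.11, -1.31 and 0.004, thus the Col-0 level in double mutant seeds. It rested on about 18 fragments in Col-0. The others of the 12 not yet described had transcripts under 400 nt. AT2G35850, AT3G26539, AT1G59723 and AT5G55855, all coding, and AT1G09215, a non-coding RNA, had L of 1.09 to 2.47 in *pkr2-2* and -3.50 to -1.03 in *pkl-1*. Their L in double mutant seeds ran between -2.95 and 0.24.

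The 5 genes of the first set with the highest level in Col-0 were AT1G61255, AT2G36724, *LCR38*, AT1G58055 and *LCR21*. AT1G61255, of unknown function, was at 1265 FPKM in *pkr2-2* against 869 in Col-0, at 489 FPKM in *pkl-1* against 953 in Col-0 and at 494 FPKM in double mutant seeds against 1012 in Col-0. AT2G36724, also unknown, was at 586 FPKM in *pkr2-2* against 409 in Col-0, at 144 FPKM in *pkl-1* against 448 in Col-0 and at 197 FPKM in double mutant seeds against 476 in Col-0. In both the difference in *pkr2-2* (L of 0.54 and 0.52) was near the threshold and that in *pkl-1* (-0.96 and -1.63) larger.

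Signals and hormone genes made up further groups of the first set, taken from the annotation after the values were seen. The peptide ligand genes *CLE8* and *CLE19* act in embryo and endosperm development, and *RALFL28* encodes a peptide related to rapid alkalinization factors. *CLE8* was at 108 FPKM in *pkr2-2* against 70.6 in Col-0, at 43.5 FPKM in *pkl-1* against 77.4 in Col-0 and at 29.1 FPKM in double mutant seeds against 82.3 in Col-0, below all other genotypes. *RALFL28* had L of 0.67 in *pkr2-2*, -0.85 in *pkl-1* and -0.30 in double mutant seeds, and *CLE19*, at about 16 fragments in Col-0, had 0.55, -0.63 and -0.53. Of 8 genes of hormone pathways, 3 were lower by 0.5 or more in double mutant seeds than in Col-0 and none was higher, where 56.9% of the first set were lower and 5.23% higher, so the count is no result about hormone genes. *HP6* (AT1G80100), which encodes the cytokinin signalling inhibitor AHP6, was at 6.58 FPKM in *pkr2-2* against 3.68 in Col-0, at 1.29 FPKM in *pkl-1* against 4.03 in Col-0 and at 0.762 FPKM in double mutant seeds against 4.28 in Col-0. *ARR7*, a cytokinin response regulator, was at 9.02 FPKM in double mutant seeds against 9.01 in Col-0, although its L was 0.89 in *pkr2-2* and -0.50 in *pkl-1*. *AOS* (allene oxide synthase) and *JMT* (jasmonic acid carboxyl methyltransferase) both act in jasmonate metabolism. *AOS* was at 20.5 FPKM in *pkr2-2* against 12.6 in Col-0, at 8.25 FPKM in *pkl-1* against 13.8 in Col-0 and at 18.9 FPKM in double mutant seeds against 14.7 in Col-0, while *JMT* had L of 0.96, -0.71 and -0.73. Of 15 genes of the jasmonate response list, which includes *AOS*, 4 were higher and 0 lower in *pkr2-2*, 6 were higher and 4 lower in *pkl-1*, and 10 were higher and 0 lower in double mutant seeds. Of all genes that could reach the fold, 11.4% were higher in *pkr2-2*, 18.9% higher and 17.5% lower in *pkl-1*, and 26.2% higher in double mutant seeds. The auxin genes *GH3.3*, which conjugates auxin to amino acids, *IAA20*, a repressor, and *ARF20*, a response factor, had L of 0.63, 0.58 and 0.50 in *pkr2-2* and -0.65, -0.56 and -0.60 in *pkl-1*, and in double mutant seeds -0.29, -0.28 and -0.64.

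Other genes of the first set encode surface and folding proteins. The 4 genes with an X8 domain, a fold that binds cell wall sugars, had median L of 0.91 in *pkr2-2*, -1.55 in *pkl-1* and -0.84 in double mutant seeds. AT1G66855 of this group was at 113 FPKM in *pkr2-2* against 57.1 in Col-0, at 20.1 FPKM in *pkl-1* against 62.6 in Col-0 and at 27.1 FPKM in double mutant seeds against 66.6 in Col-0. Of the 25 genes with that domain and such a Col-0 level, the 4 included, 11 were higher and 2 lower in *pkr2-2*, 6 were higher and 16 lower in *pkl-1*, and 6 were higher and 13 lower in double mutant seeds. Among all genes with such a level, 9.13% were higher and 7.64% lower in *pkr2-2*. The shares were 15.8% and 18.7% in *pkl-1*, and 22.0% and 23.3% in double mutant seeds. The chaperone and heat genes *TIN1*, *ATERDJ3A*, *MBF1C* and AT1G07400 had median L of 0.74 in *pkr2-2*, -0.65 in *pkl-1* and -0.06 in double mutant seeds. *AGL12* (AT1G71692), a MADS box transcription factor gene, was at 7.44 FPKM in *pkr2-2* against 3.97 in Col-0, at 0.793 FPKM in *pkl-1* against 4.35 in Col-0 and at 0.575 FPKM in double mutant seeds against 4.62 in Col-0.

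In the second set, lower in *pkr2-2* and higher in *pkl-1*, natural antisense transcripts were 12 of 92 genes (13.0%), against 8 of 153 in the first set (5.23%) and 1.57% of the genes that could reach the fold in both tables. These non-coding RNAs overlap a gene on the other strand, and their reads cannot be told apart from those of that gene where strand was not used. Of the 12, 8 had a transcript under 400 nt, and in double mutant seeds 4 were higher than in Col-0, 5 lower and 3 in between. The whole second set had 64.1% higher and 15.2% lower there. By Col-0 level 260 antisense transcripts entered, of which 14.6% were higher and 35.8% lower in *pkr2-2*, against 9.13% and 7.64% of all genes. In *pkl-1* 20.4% were higher and 36.5% lower, against 15.8% and 18.7%. Antisense transcripts thus often differed from Col-0 in either direction, not only as in this set. The coding genes described below were chosen by the size rules or by annotation. By the smaller of the differences in the single mutants, AT3G02790, a C2H2 zinc finger gene, stood first: 1.27 FPKM in *pkr2-2* against 9.52 in Col-0, 40.9 FPKM in *pkl-1* against 10.4 in Col-0 and 32.5 FPKM in double mutant seeds against 11.1 in Col-0. It overlaps another annotated gene, from which its reads cannot be told apart where strand was not used. AT4G21650, a subtilase (secreted protease) gene with about 1153 fragments in Col-0, was at 3.28 FPKM in *pkr2-2* against 12.4 in Col-0, at 39.6 FPKM in *pkl-1* against 13.6 in Col-0 and at 56.5 FPKM in double mutant seeds against 14.4 in Col-0. AT4G32480, of a family of unknown function, was at 0.698 FPKM in *pkr2-2* against 3.55 in Col-0, at 12.6 FPKM in *pkl-1* against 3.89 in Col-0 and at 16.1 FPKM in double mutant seeds against 4.14 in Col-0. All 3 had a double mutant level within 0.5 of *pkl-1*. AT3G09950, unknown, had L of -1.13 in *pkr2-2*, 1.26 in *pkl-1* and 0.62 in double mutant seeds.

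*CCL* (AT3G26740), whose transcript stability is controlled by the circadian clock, was at 28.6 FPKM in *pkr2-2* against 115 in Col-0, at 288 FPKM in *pkl-1* against 126 in Col-0 and at 148 FPKM in double mutant seeds against 134 in Col-0. *CAT3* (AT1G20620), a catalase, was at 153 FPKM in *pkr2-2* against 302 in Col-0, at 491 FPKM in *pkl-1* against 331 in Col-0 and at 299 FPKM in double mutant seeds against 352 in Col-0. Both were near the Col-0 level in double mutant seeds, between the single mutants. None of the 14 morning and 11 evening clock genes of the lists was in either set. Of the evening genes, however, 8 of 11 were lower and 0 higher in *pkr2-2*, 3 were lower and 0 higher in *pkl-1*, and 8 were lower and 0 higher in double mutant seeds, and of the 14 morning genes 8 were higher and 1 lower in *pkr2-2*, 5 were higher and 0 lower in *pkl-1*, and 13 were higher and 0 lower in double mutant seeds. Over all genes that could reach the fold, 11.4% were higher and 7.27% lower in *pkr2-2*, and 18.9% higher and 17.5% lower in *pkl-1*. In double mutant seeds 26.2% of them were higher and 21.4% lower. The hour of harvest is not given in the sources used here. The part of the clock genes in the values of *CCL* and *CAT3* was not tested.

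Several genes that recycle carbon and nitrogen belonged to the second set. *PCK1* (AT4G37870), which encodes the gluconeogenesis enzyme phosphoenolpyruvate carboxykinase, was at 58.5 FPKM in *pkr2-2* against 96.7 in Col-0, at 209 FPKM in *pkl-1* against 106 in Col-0 and at 169 FPKM in double mutant seeds against 113 in Col-0. *GAT1_2.1* (AT1G15040), a nitrogen-regulated glutamine amidotransferase gene, was at 0.740 FPKM in *pkr2-2* against 3.20 in Col-0, at 8.91 FPKM in *pkl-1* against 3.51 in Col-0 and at 10.9 FPKM in double mutant seeds against 3.73 in Col-0. Its antisense transcript AT1G05147 was in the same set, and reads of the pair cannot be told apart without strand. *ATG8E*, which acts in autophagy, was at 9.87 FPKM in *pkr2-2* against 17.8 in Col-0, at 34.99 FPKM in *pkl-1* against 19.5 in Col-0 and at 48.2 FPKM in double mutant seeds against 20.7 in Col-0. The F-box genes AT1G15670 and AT2G44130 of the KISS ME DEADLY family, both in the carbon starvation list, had L of -0.60 and -0.69 in *pkr2-2*, 1.56 and 0.52 in *pkl-1* and 1.67 and 0.69 in double mutant seeds. Over that list of 19 genes, 0 were higher and 13 lower in *pkr2-2* (median L of -0.66), 3 were higher and 5 lower in *pkl-1*, and 4 were higher and 6 lower in double mutant seeds. The shares over all genes were 11.4% higher and 7.27% lower in *pkr2-2*, and 18.9% and 17.5% in *pkl-1*. In double mutant seeds they were 26.2% and 21.4%. Of 8 genes of carbon and nitrogen recycling gathered from the set after the values were seen, 6 were higher by 0.5 or more in double mutant seeds than in Col-0 and none was lower, near the 64.1% higher of the whole second set.

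The transcription factor gene *STM* (AT1G62360), which maintains the shoot meristem, was at 1.06 FPKM in *pkr2-2* against 2.68 in Col-0, at 5.89 FPKM in *pkl-1* against 2.94 in Col-0 and at 10.4 FPKM in double mutant seeds against 3.13 in Col-0. *ABS2* of the B3 family and *NAC047* were at 0.699 and 0.803 FPKM in *pkr2-2* against 2.19 and 2.00 in Col-0, at 12.6 and 16.5 FPKM in *pkl-1* against 2.40 and 2.19 in Col-0, and at 13.9 and 15.68 FPKM in double mutant seeds against 2.55 and 2.33 in Col-0. *MYB46*, which directs secondary wall formation, had L of -0.51, 0.63 and 1.02. Among cell wall genes, the beta-D-xylosidase gene *XYL4* was at 15.1 FPKM in *pkr2-2* against 24.3 in Col-0, at 57.2 FPKM in *pkl-1* against 26.7 in Col-0 and at 71.2 FPKM in double mutant seeds against 28.3 in Col-0. The genes AT1G14890 and AT5G62360, both of the invertase and pectin methylesterase inhibitor family and among the 5 highest in Col-0, parted in double mutant seeds. AT1G14890 was at 47.7 FPKM in *pkr2-2* against 80.7 in Col-0, at 139.6 FPKM in *pkl-1* against 88.4 in Col-0 and at 147 FPKM in double mutant seeds against 94.0 in Col-0. AT5G62360 was at 60.3 FPKM in *pkr2-2* against 104 in Col-0, at 172 FPKM in *pkl-1* against 114 in Col-0 and at 66.5 FPKM in double mutant seeds against 121 in Col-0, the *pkr2-2* level.

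Other genes of the second set included a stress gene and several that differed from Col-0 more in *pkl-1* than in *pkr2-2*. The cold and abscisic acid inducible gene *KIN2* (AT5G15970) was at 10.9 FPKM in *pkr2-2* against 23.8 in Col-0, at 45.7 FPKM in *pkl-1* against 26.1 in Col-0 and at 74.1 FPKM in double mutant seeds against 27.7 in Col-0. The linker histone gene *HIS1-3*, with the larger difference in *pkl-1*, was at 1.64 FPKM in *pkr2-2* against 3.22 in Col-0, at 71.5 FPKM in *pkl-1* against 3.53 in Col-0 and at 63.4 FPKM in double mutant seeds against 3.75 in Col-0. *AGP14*, an arabinogalactan protein gene, had L of -0.71, 3.04 and 3.10, and the Sadhu retroelement *SADHU5-1* had -0.57, 3.21 and 3.05. In all 4 the double mutant had a level above Col-0 and near or above that of *pkl-1*. *ESM1*, which modifies glucosinolate breakdown, was at 15.4 FPKM in *pkr2-2* against 30.7 in Col-0, at 125 FPKM in *pkl-1* against 33.7 in Col-0 and at 60.0 FPKM in double mutant seeds against 35.8 in Col-0, between *pkl-1* and Col-0.

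The rule used the contrasts of the single mutants with Col-0, so the following counts are a description of the selection. All 153 genes of the first set had L of 0.5 or more in *pkr2-2*, where 11.4% of 19963 genes that could reach the fold did, and L of -0.5 or less in *pkl-1*, where 17.5% of 20352 did. The 92 genes of the second set were lower in *pkr2-2*, as were 7.27% of genes, and higher in *pkl-1*, as were 18.9%. At the edge of the first set, AT5G26717 (L of 0.50 in *pkr2-2* and -1.14 in *pkl-1*) and AT4G19975 (0.54 and -0.50) were the last inside, and AT5G57785 (0.4995 and -0.75) and AT1G24735 (0.4995 and -0.79) the first outside. At the edge of the second set, AT3G53980 (-0.50 and 1.49) and AT5G10150 (-0.50 and 0.90) were the last inside, and *EXT4* (-0.4982 and 0.94) and *ENDO2* (-0.4959 and 1.19) the first outside.

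**Figure D3:**
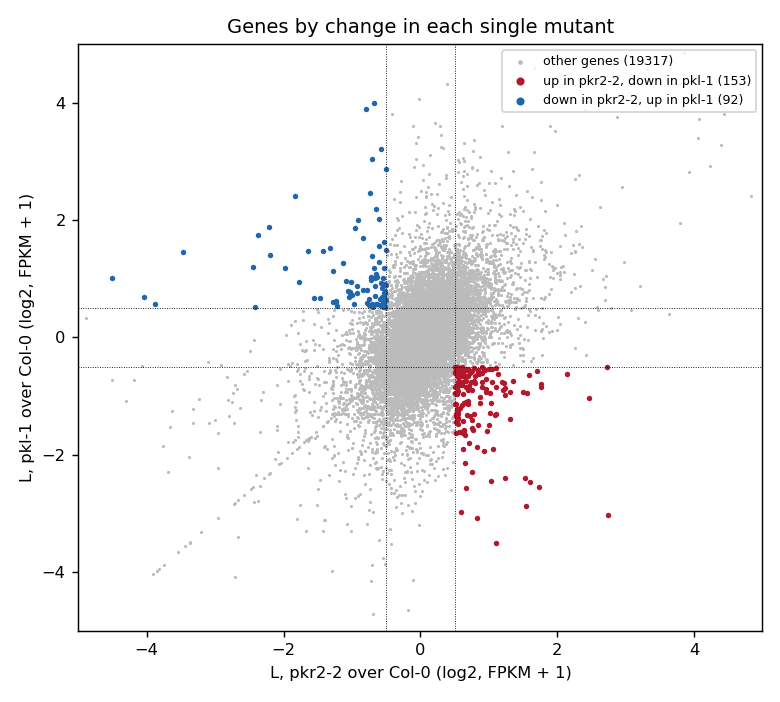
L in *pkr2-2* over Col-0 (x axis) and in *pkl-1* over Col-0 (y axis), both log2 of FPKM + 1, for the genes that could reach the fold in both tables, with the 153 genes of the first set in red, the 92 of the second in blue and all others in grey. Dotted lines mark the threshold of 0.5, and 10 of the other genes lie outside the axes, which end at 5.

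In double mutant seeds against Col-0, the first set had a median L of -0.66, with 8 genes higher by 0.5 or more, 87 lower and 58 in between. Over all 20794 genes that could reach the fold there, 26.2% were higher and 21.4% lower, with a median of 0.05. The second set had a median L of 0.76, with 59 genes higher (64.1%), 14 lower (15.2%) and 19 in between. Most of both sets thus had the direction of *pkl-1* in double mutant seeds. All 245 genes could have been lower by the threshold, since each had enough FPKM in Col-0. Of the first set, 56.9% were lower, while of the 2603 genes lower in *pkl-1* and within 0.5 of Col-0 in *pkr2-2*, 82.6% were lower in double mutant seeds, with a median L of -0.84. Of the 2644 genes higher in *pkl-1* and within 0.5 in *pkr2-2*, 83.6% were higher in double mutant seeds, with a median of 0.86, against the 64.1% of the second set.

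**Figure D4:**
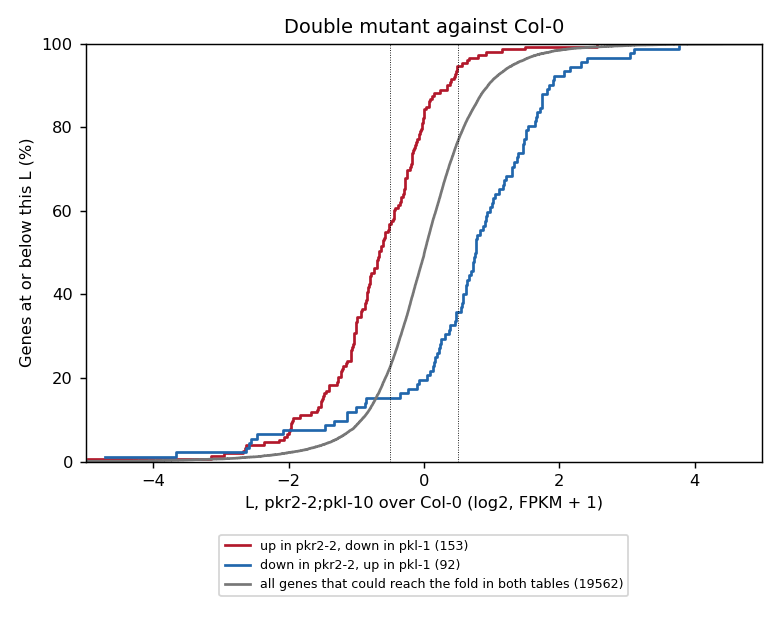
Cumulative share of genes (y axis, percent) at or below each L in double mutant seeds over Col-0 (x axis, log2 of FPKM + 1, cropped at 5 on both sides) for the first set (red), the second set (blue) and all genes that could reach the fold in both single mutant tables (grey). The red line lies left of the grey one, with a median of -0.66, and the blue line right of it over most of its length, with a median of 0.76.

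Against *pkr2-2*, the double mutant had lower levels in 142 genes of the first set and higher levels in 2, and in the second set 80 genes were higher and 1 was lower. Over all genes that could reach the fold 19.8% were lower and 20.9% higher, but the sets were chosen on the same *pkr2-2* libraries, so nothing is read from these counts. Against *pkl-1*, 61 genes of the first set were higher in double mutant seeds and 12 lower, with a median L of 0.34, where 9.6% of all genes were higher and 6.25% lower. In the second set 11 were higher and 29 lower, with a median of -0.12. The *pkl-1* libraries also entered the choice, so these counts are a description too. By the smallest absolute L, the double mutant was nearest to *pkl-1* in 84 genes of the first set (54.9%), to Col-0 in 59 (38.6%) and to *pkr2-2* in 10 (6.54%). In the second set it was nearest to *pkl-1* in 62 genes (67.4%), to Col-0 in 17 and to *pkr2-2* in 13. These counts and those that follow were not made over all genes, so no trait of the sets is read from them. Among genes that could reach the fold, the double mutant was within 0.5 of *pkl-1* in 17489 of 20784. It was within 0.5 of Col-0 in 10907 of 20794 and of *pkr2-2* in 12338 of 20831. In 37 genes of the first set, *LCR22* among them, and 11 of the second, *CCL* among them, the double mutant was within 0.5 of Col-0 and at least 0.5 from both single mutants. In 12 genes of the first set it was below all other genotypes by 0.5 or more, and in 11 of the second set above all of them. The antisense RNA AT4G00975 was the extreme of the first kind, at 105 FPKM in *pkr2-2* against 30.3 in Col-0, 18.6 FPKM in *pkl-1* against 33.2 in Col-0 and 0.168 FPKM in double mutant seeds against 35.3 in Col-0, while *STM* and *KIN2* were of the second kind.

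Transcripts of both sets were short. The median length was 614 nt in the first set and 1109.5 nt in the second, against 1668 nt over all genes that could reach the fold, and 44 genes (28.8%) and 18 genes (19.6%) were shorter than 400 nt, against 1.86%. For transcripts under 400 nt no fragment number could be estimated. Of the 109 and 74 genes with an estimate, 21 and 6 stayed under 30 fragments in the higher genotype. In the first set 21 genes were listed at 0 in *pkl-1* and 8 in double mutant seeds, and in the second set 12 were listed at 0 in *pkr2-2* and 8 in double mutant seeds. Some of the largest differences were of this kind. The small nuclear RNA *U2.10* was listed at 0 in *pkr2-2* against 10.04 FPKM in Col-0 and was at 32.0 FPKM in *pkl-1* against 11.0 in Col-0, and the RNAs AT2G08770 and AT3G09135 and the coding gene AT1G47695, all under 300 nt, were also at or near 0 in *pkr2-2* and listed at 0 in double mutant seeds. The antisense RNAs AT5G08425 and AT5G03245, in contrast, were at 11.4 and 44.9 FPKM in double mutant seeds against 3.00 and 17.65 in Col-0. Of the 14 genes of the second set that were lower in double mutant seeds, 5 had a transcript of 300 nt or more. Another annotated gene overlapped 36 genes of the first set (23.5%) and 22 of the second (23.9%), against 31.9% over all.

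Markers of seed tissues also differed from Col-0. Of 16 embryo markers, 0 were higher and 2 lower in *pkr2-2*, 1 was higher and 10 lower in *pkl-1* and 2 were higher and 12 lower in double mutant seeds, and their summed level was 129 FPKM in *pkr2-2* against 164 in Col-0, 73.3 FPKM in *pkl-1* against 179 in Col-0 and 70.0 FPKM in double mutant seeds against 191 in Col-0. Of 13 endosperm markers 0 were higher and 1 lower in *pkr2-2*, 1 was higher and 6 lower in *pkl-1*, and 2 were higher and 6 lower in double mutant seeds. Their summed levels were 113 FPKM in *pkr2-2* against 135 in Col-0, 82.7 FPKM in *pkl-1* against 148 in Col-0 and 74.1 FPKM in double mutant seeds against 158 in Col-0. Of 17 seed coat markers 1 was higher and 0 lower in *pkr2-2* and 8 were higher and 0 lower in *pkl-1*, and 6 were higher and 0 lower in double mutant seeds. The counts of seed coat markers in *pkr2-2* and in double mutant seeds were near the 11.4% and 26.2% higher of all genes. The 8 of 17 higher in *pkl-1* stood beside 18.9%. Of 9 photosynthesis genes of silique wall and leaf, 0 were higher and 1 lower in *pkr2-2*, 1 was higher and 4 lower in *pkl-1*, and 1 was higher and 3 lower in double mutant seeds. The lower counts of embryo, endosperm and photosynthesis genes stood beside 7.27% of all genes in *pkr2-2*, 17.5% in *pkl-1* and 21.4% in double mutant seeds. *STM*, itself one of the embryo markers, went against its list in *pkl-1*. None of the embryo, endosperm or seed coat markers was at 0 in Col-0. The part of tissue shares in the values of either set was not tested.

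Promoters were searched for 12 motifs on both strands in the 250 bases before the annotated start, as a description without a test. The W-box TTGACC, known as the site of WRKY factors, was found in 31 of 153 promoters of the first set (20.3%), 6 of 92 of the second (6.52%) and 12.1% of those of all 19562 genes. Many of the 31 were promoters of peptide genes, among them *LCR38*, *LCR24* and the neighbours AT3G01326, AT3G01327 and AT3G01328. These related copies are not independent, so the share is not a trait of the first set at large. The TATA box letters TATAAA were found in 94 of the first set (61.4%), 40 of the second (43.5%) and 46.7% of all. The site II letters TGGGCC, known from growth and ribosomal protein genes, were found in 7.84% and 5.43% against 16.8%. The evening element AAAATATCT, known from clock-controlled promoters, was found in 7 (4.58%) and 4 (4.35%) against 2.59%. The remaining 8 motifs, namely CACGTG (G-box), ACGTGTC (ABRE core, which shares the letters ACGTG with the G-box), CCGAC (dehydration-responsive element), GAANNTTC (heat shock element), GCCGCC (GCC-box), AAACCCTAA (telo-box), GAGAGAGA (GAGA repeat) and AAAAATCT (CCA1-binding site), are in the plot of motif shares. Promoters of 2 peptide genes with a W-box and of *CCL* and *CAT3* with an evening element are shown as examples, chosen after the values were seen, from the TAIR10.1 genome, 5′ to 3′ in the direction of transcription, with the match on either strand in capitals.
LCR38 (AT4G19905, chr4:10794812-10795061, minus strand): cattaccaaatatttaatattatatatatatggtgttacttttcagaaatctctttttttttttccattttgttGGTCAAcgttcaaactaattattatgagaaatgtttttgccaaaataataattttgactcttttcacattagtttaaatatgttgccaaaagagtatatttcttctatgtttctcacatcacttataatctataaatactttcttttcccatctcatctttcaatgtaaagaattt
LCR24 (AT4G29285, chr4:14431276-14431525, plus strand): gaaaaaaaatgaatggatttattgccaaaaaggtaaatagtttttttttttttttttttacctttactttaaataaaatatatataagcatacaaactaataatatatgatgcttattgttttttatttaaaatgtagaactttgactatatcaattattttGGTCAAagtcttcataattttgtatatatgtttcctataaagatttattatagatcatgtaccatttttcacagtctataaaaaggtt
CCL (AT3G26740, chr3:9827432-9827681, plus strand): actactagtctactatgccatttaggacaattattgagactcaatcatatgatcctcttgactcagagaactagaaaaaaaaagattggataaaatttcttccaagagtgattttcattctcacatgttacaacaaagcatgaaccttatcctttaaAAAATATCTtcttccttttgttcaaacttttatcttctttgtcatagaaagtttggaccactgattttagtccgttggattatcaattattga
CAT3 (AT1G20620, chr1:7142722-7142971, plus strand): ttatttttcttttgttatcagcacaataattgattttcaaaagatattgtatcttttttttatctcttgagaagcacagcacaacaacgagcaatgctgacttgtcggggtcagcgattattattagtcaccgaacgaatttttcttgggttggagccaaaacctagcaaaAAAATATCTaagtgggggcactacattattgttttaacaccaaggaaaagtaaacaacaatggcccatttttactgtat
The W-box began 176 bases before the start in *LCR38* and 88 in *LCR24*, and the evening element 93 bases before it in *CCL* and 79 in *CAT3*. A match says only that the letters stand in this window.

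**Figure D5:**
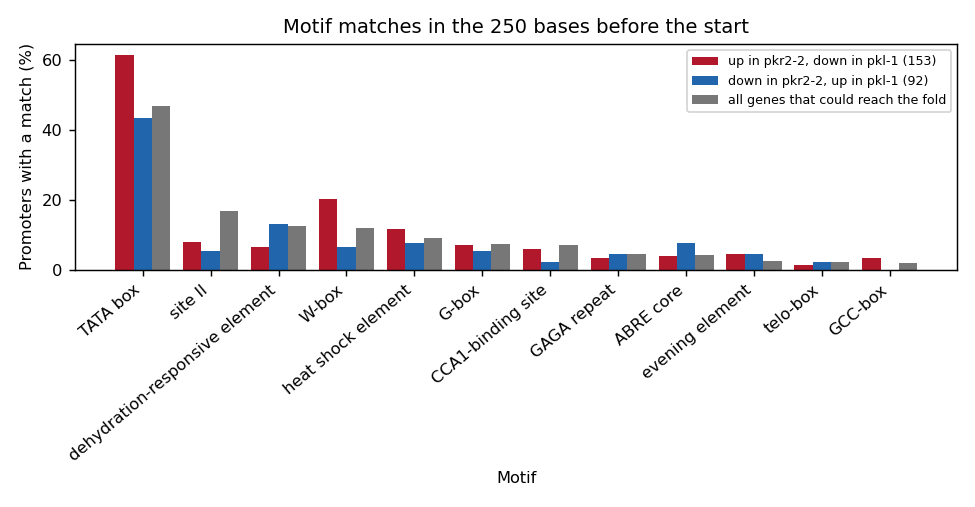
Share of promoters (y axis, percent) with at least 1 match of each motif (x axis) on either strand in the 250 bases before the annotated start, for the first set (red, 153 genes), the second set (blue, 92 genes) and all genes that could reach the fold (grey, 19562 genes). The bars of the W-box stand at 20.3%, 6.52% and 12.1%.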

How the data were processed

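Seeds of 4 genotypes, 2 replicates each, were sequenced as mRNA. The submitters' processing notes name TopHat2 2.1.1, Cufflinks 2.2.1.3 and the TAIR10 genome. The deposited FPKM values were pooled by the authors over replicates, 1 per genotype, in 5 Cuffdiff tables of 38209 genes. The tables also hold the authors' log2 fold changes, test statistics, p-values and q-values, which were not used. The number of per-sample columns left unused is 0.

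L was computed with a pseudocount of 1 FPKM. It understates changes of low genes. A gene could reach the fold with 0.414 FPKM or more in a genotype. No filter was applied to the sets. Precision is unknown beyond the estimated fragments, given for transcripts of 400 nt or more from the smallest values of transcripts of 2000 nt or more, and these cover counting error only. The 2 sets, the 21 gene lists and the 27 product families were chosen with earlier results of these data known.

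Genes named were *PKL* and *PKR2*, in each set the 12 with the largest smaller change of the single mutants and the 5 highest in Col-0, members of the lists, and 2 genes on each side of the threshold. Other genes and the role groups were chosen after their values were seen. The alternatives were pseudocounts of 0.1 and 0.5, filters of 1 FPKM, a threshold of 1, centring, transcripts of 300 nt or more, loci without overlap and 30 fragments. The rule and the depth estimate were tested on simulated data with counting error only. The planted changes were larger than the threshold and lay in long genes of high level. The simulation therefore says nothing about short or low genes, or about variation between replicates. Python 3.11.15, numpy 2.4.6, pandas 2.3.3, Biopython 1.88 and matplotlib 3.10.9 were used. Positions and sequences came from the RefSeq TAIR10.1 genome and annotation, in which 38158 of the 38209 genes were matched. No protein sequences were used here.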

Additional observations from a re-analysis of the deposited data

How the results depend on the processing

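No paired analysis was possible because the deposited values are pooled over replicates, and for the same reason no replicate could be left out. The number of oppositely differing genes was 245, of which 153 were in the first set and 92 in the second. With a pseudocount of 0.1 it was 752 (391 and 361), of which 56 of the first set were higher and 206 lower in the double mutant than in Col-0, and 245 of the second set were higher and 33 lower. With a pseudocount of 0.5 it was 374, with 18 genes of the first set higher in the double mutant, and 160 genes in the second set, of which 98 were higher. With at least 1 FPKM in every genotype it was 158 (101 and 57), with 4 of the first set higher and 54 lower in the double mutant and 2 of the second set lower. With a threshold of 1 it was 28 (15 and 13), with 0 of the first set higher and 9 lower (median L of -1.07), and 6 of the second set higher and 5 lower. With at least 30 fragments it was 156, with 88 in the first set, of which 2 were higher and 49 lower, and 2 of the second set lower. The second set had 5 lower genes among transcripts of 300 nt or more and 7 among loci without overlap. Under these alternatives, the median L in the double mutant over Col-0 kept its sign in both sets, from -1.07 to -0.57 in the first and from 0.62 to 0.96 in the second. The median L of the second set in the double mutant over *pkl-1*, -0.12, turned to 0.0105 with 1 FPKM in every genotype, 0.0137 with 300 nt, 0.0048 without overlap and 0.0533 with 30 fragments, so its direction is not settled. The cause was not tested. Values of named genes were recomputed only with a pseudocount of 0.1 and with centring. Of these 480 values, 470 stayed on their side of the threshold and 10 did not. The other alternatives, those on transcript length and fragments among them, were not applied to named genes. The 35 peptide genes of the first set became 43 with a pseudocount of 0.1, 28 with 300 nt, 34 without overlap, 8 with 30 fragments (shorter transcripts have no estimate) and 3 with a threshold of 1; these alternatives were chosen after seeing the data. The peptide family counted by Col-0 level alone, also chosen after seeing the data, had 57 genes higher in *pkr2-2* in place of 93. It had 12 higher in *pkl-1* in place of 31, and 26 in double mutant seeds in place of 60. Of ECA1-related genes, 11 in place of 30 were higher in *pkr2-2*, and 4 in place of 17 in double mutant seeds. Of thionins, 8 in place of 17 were higher in double mutant seeds. The counts of lower genes were the same. In double mutant seeds the median L was -0.59 in place of 0.35 for ECA1-related genes. It was -0.33 in place of 0.68 for thionins, so the direction of both depends on this choice.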
